A study of Mus musculus with 2 samples.

Results

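Slc1a1, Slc1a2, Slc1a3, Slc1a4, Slc1a5 and Glul are 6 of the 31053 genes counted in a single-cell RNA sequencing study of the mouse eye cup at postnatal day 0. They were taken by symbol from the deposited gene list, as the glutamate and neutral amino acid transporters of the Slc1 family together with glutamine synthetase, and every symbol matched 1 gene. There was 1 library of control pups (Myrf fl/fl, both Myrf alleles flanked by cre recognition sites) and 1 library of mutant pups (the same alleles with the Rx>cre transgene). Rx>cre is active in the early eye field, so the deletion covers the neural retina as well as the retinal pigment epithelium (RPE). Myrf itself encodes a membrane-bound transcription factor. For each library 3 eye cups were pooled, after removal of the cornea, the lens and the optic nerve, and cells were released with papain, a protease. With 1 library per genotype there is no replicate, so no p-value is given, and every interval in the text covers counting error only.

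The first 3 genes encode sodium-dependent glutamate transporters: Slc1a1 encodes EAAC1, a carrier of neurons and epithelia, Slc1a2 encodes GLT1 and Slc1a3 encodes GLAST, the carrier of Müller glia and of the progenitors they come from. Slc1a4 (ASCT1) and Slc1a5 (ASCT2) exchange small neutral amino acids such as serine, alanine and glutamine. Glul makes glutamine from glutamate and ammonia, the step by which glia clear transmitter glutamate and return it to neurons. The RPE lies between the photoreceptors and the choroidal vessels and carries amino acids across that barrier.

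Cells were grouped by gene expression, and each group was named from marker genes. Of 12449 control and 10797 mutant cells kept, 487 and 192 were RPE-like, 3193 and 3836 retinal progenitor-like, 31 and 31 astrocyte-like, 21 and 18 peripheral glia-like, 433 and 167 endothelial-like and 86 and 64 mural-like. The RPE-like group held 8 of its 12 markers (Ttr, Mitf, Rlbp1, Tyrp1, Pmel, Trpm3, Rdh5 and Rgr) at the level required to count, and Rpe65 had no UMI in the mutant. It also held 6 of the 8 melanocyte markers at that level, and was named for the RPE because RPE markers led its top genes. The astrocyte-like group was led by Cartpt, Fbxo2, Pax2 and Gfap, and held 4 of its 8 markers. Müller glia had no list of their own, and at this age their lineage falls among the progenitors. A further 3301 control and 1925 mutant cells stayed in groups without a name.

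The libraries differed in other ways than genotype. The totals were 79017429 and 76272867 UMIs (unique molecular identifiers, each marking 1 captured transcript). The RPE-like cells were much deeper in the mutant, with a median of 10618.5 UMIs per cell against 2534 in the control. The sex-linked transcripts also differed: 6401 control cells held Y-linked UMIs without Xist and 888 held Xist without Y-linked UMIs, against 1507 and 7611 in the mutant. The libraries shared 59 barcodes. Myrf, the deleted gene, had 745 UMIs in control and 61 in mutant RPE-like cells, which is 231 and 26.6 CPM (UMIs of the gene scaled to a total of 1000000 UMIs in the group).

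Promoter sequence of 5 of the 6 genes was in RefSeq (GRCm38.p6), from 250 bases before to 50 bases after the annotated start, and Slc1a5 is named only. Stretches are shown for Slc1a1 and Slc1a4, the members with the largest difference between genotypes in RPE-like and in progenitor-like cells among those with at least 20 UMIs there, each 5′ to 3′ on the strand of the gene. The Slc1a1 stretch, chr19:28834885-28835048 on the plus strand, ends just before the gene as GENCODE draws it (chr19:28835049-28913960). The Slc1a4 stretch, chr11:20332710-20332863 on the minus strand, runs across the start of the gene (chr11:20302180-20332713), and its capitals mark the letters TTGCATCA, the reverse complement of TGATGCAA.
Slc1a1: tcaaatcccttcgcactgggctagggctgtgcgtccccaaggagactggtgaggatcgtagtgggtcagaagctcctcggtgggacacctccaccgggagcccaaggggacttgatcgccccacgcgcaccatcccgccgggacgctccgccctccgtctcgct
Slc1a4: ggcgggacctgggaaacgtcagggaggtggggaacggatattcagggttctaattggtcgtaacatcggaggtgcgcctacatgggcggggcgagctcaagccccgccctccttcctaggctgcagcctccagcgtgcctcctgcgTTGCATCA

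TGATGCAA is a form of the element that ATF4, the transcription factor of the amino acid response, binds beside a partner. It was searched on both strands with CTGGCAC and CTGGTAC (forms of the MYRF motif), CACGTG and CATGTG (E-boxes, which MITF can bind) and GGATTA (OTX2). Slc1a4 held TGATGCAA, beginning 4 bases before its start, and Slc1a2 held CATGTG. The Slc1a2 window is at a start within the gene (chr2:102706438). GENCODE draws the gene at chr2:102658659-102790784 on the plus strand, and the bases before that first position were not searched. No other motif of the set was present in the 300 bases of Slc1a1, Slc1a2, Slc1a3, Slc1a4 or Glul. Of all 32851 promoters, 0.895% held TGATGCAA and 14.2% held CATGTG, while CTGGCAC was in 5.01%, CTGGTAC in 2.24%, CACGTG in 7.15% and GGATTA in 7.06%. A match here describes letters and not binding, and the absence of a match refers only to these windows.

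Each gene had its own distribution over the named groups of the eye cup. Slc1a1 was highest in RPE-like cells, Slc1a2 in photoreceptor-like cells, Slc1a3 in astrocyte-like and progenitor-like cells, Slc1a4 and Slc1a5 in mesenchyme-like cells, and Glul in RPE-like cells, in the control and in the mutant alike. For Slc1a4 in the mutant, the intervals of mesenchyme-like (18.1 to 24.9 CPM) and progenitor-like cells (17.6 to 21.5 CPM) overlapped, and a shallow unnamed cluster led by lens crystallins was higher, at 11.9 CPM in control and 36.6 CPM in mutant cells. Levels are not compared between genes, because counts from the 3′ end are not a level per length and capture can differ from gene to gene.

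**Figure D1:**
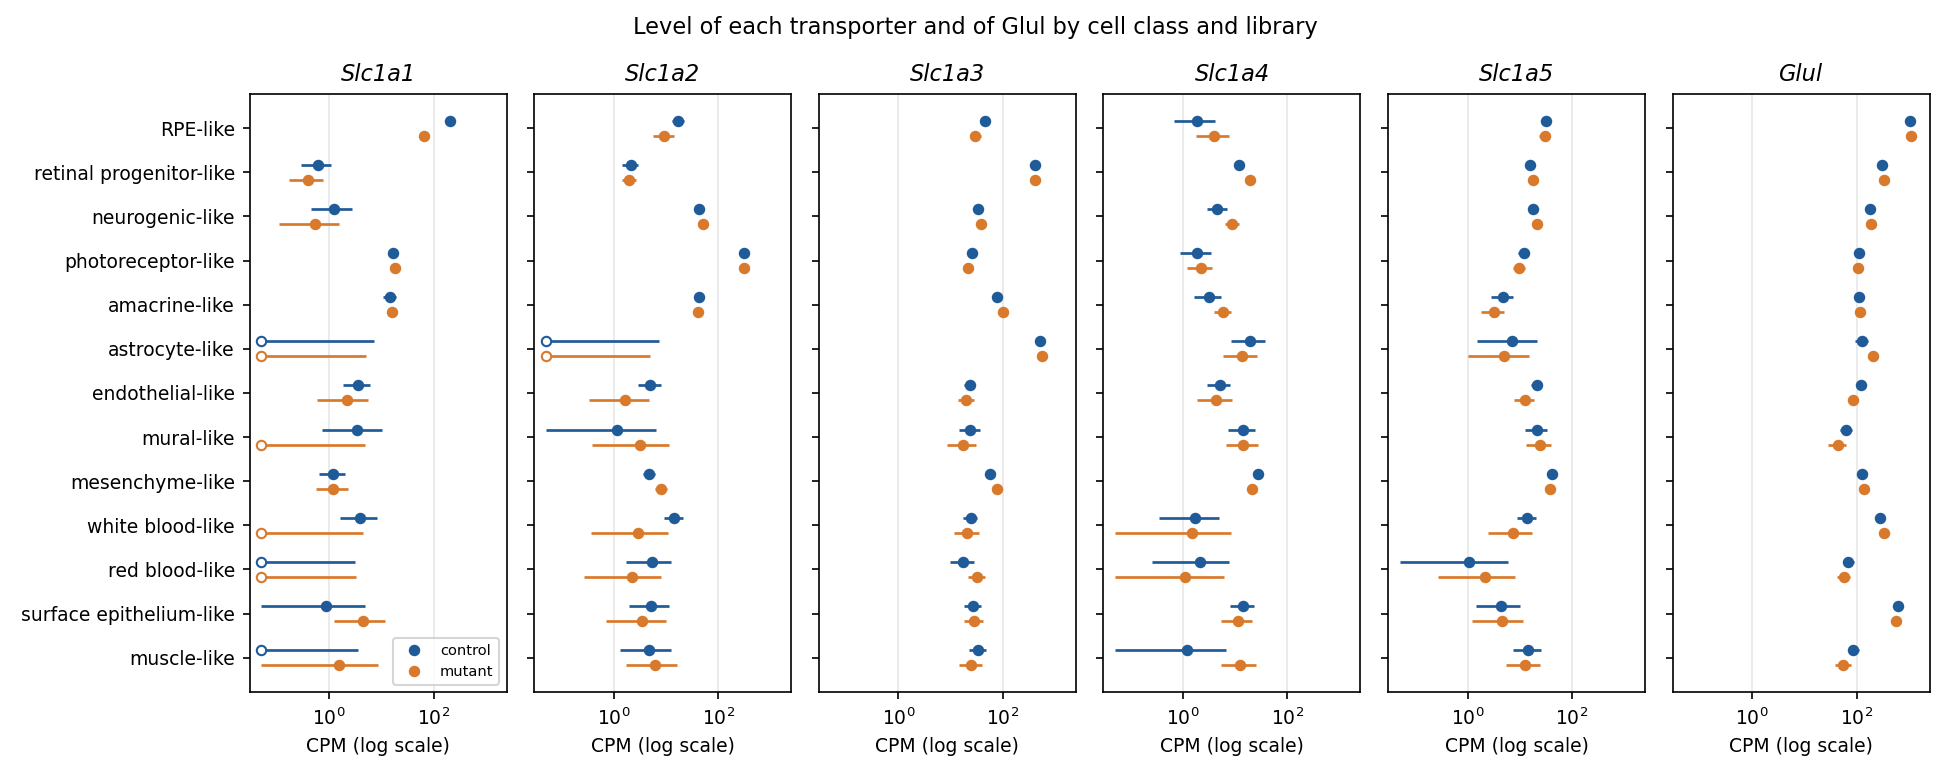
Level of each gene in CPM (log axis) in the RPE-like, progenitor-like, neuronal, glial, vascular and other groups, control in blue and mutant in orange, with 95% Poisson intervals; open circles at the left edge mark groups without a UMI. Slc1a1 is set apart in RPE-like cells, at 208 CPM in control and 64.5 CPM in mutant cells, whereas Glul in RPE-like cells is at 1058 and 1096 CPM.

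The glutamate transporter Slc1a1 was the member that marked the RPE and the one with the largest difference there. Control RPE-like cells held 672 of the 926 Slc1a1 UMIs in the kept cells of the library (72.6%), although they were 3.91% of those cells. The mutant RPE-like cells held 148 of 416 (35.6%). The level was 208 CPM (95% interval 193 to 225) in the control and 64.5 CPM (54.5 to 75.8) in the mutant, and the intervals did not overlap. This is a log2 ratio of mutant over control of −1.68 (−1.96 to −1.43, with 1 CPM added for the ratio and none for its interval), or a level 3.23-fold lower (2.70 to 3.89). Of 11066 genes tested in RPE-like cells, those with at least 20 UMIs over both libraries, 1.88% had a lower ratio.

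Since mutant RPE-like cells were deeper, the share of cells with a Slc1a1 UMI was taken after every cell had been thinned to 1000 UMIs. It was 14.5% in the control (56 of 387 cells, interval 11.1% to 18.4%) and 3.57% in the mutant (6 of 168, 1.32% to 7.61%), with 100 control and 24 mutant cells too shallow to enter. Progenitor-like cells, which hardly hold the transcript, gave 0.0313% and 0.0522% at the same depth, and their median depths were 4802 and 4928 UMIs. The RPE share was thus above the background share in both libraries. Without thinning, where the deeper mutant cells had more chances to show a UMI, the shares were 38.4% and 33.3%.

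The difference in Slc1a1 was also seen among cells of like depth, with one exception. In RPE-like cells over 8000 UMIs, Slc1a1 was at 231 CPM in 151 control cells and at 66.1 CPM in 111 mutant cells (log2 −1.79, −2.08 to −1.53). In cells of 4001 to 8000 UMIs it was at 108 and 23.2 CPM (−2.17, −4.58 to −0.53). In cells of up to 4000 UMIs, with 64 and 8 UMIs of the gene, the interval included 0 (−0.70, −1.98 to 0.35), and with at most 2000 UMIs per cell the ratio was −0.32 on 35 and 5 UMIs. Glul had no single direction over these ranges, with 949 and 764 CPM in cells of up to 4000 UMIs (−0.31, −0.70 to 0.05), 1033 and 1290 CPM in those of 4001 to 8000 UMIs (0.32, 0.03 to 0.60) and 1080 and 1099 CPM in those over 8000 UMIs (0.02, −0.06 to 0.11).

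**Figure D2:**
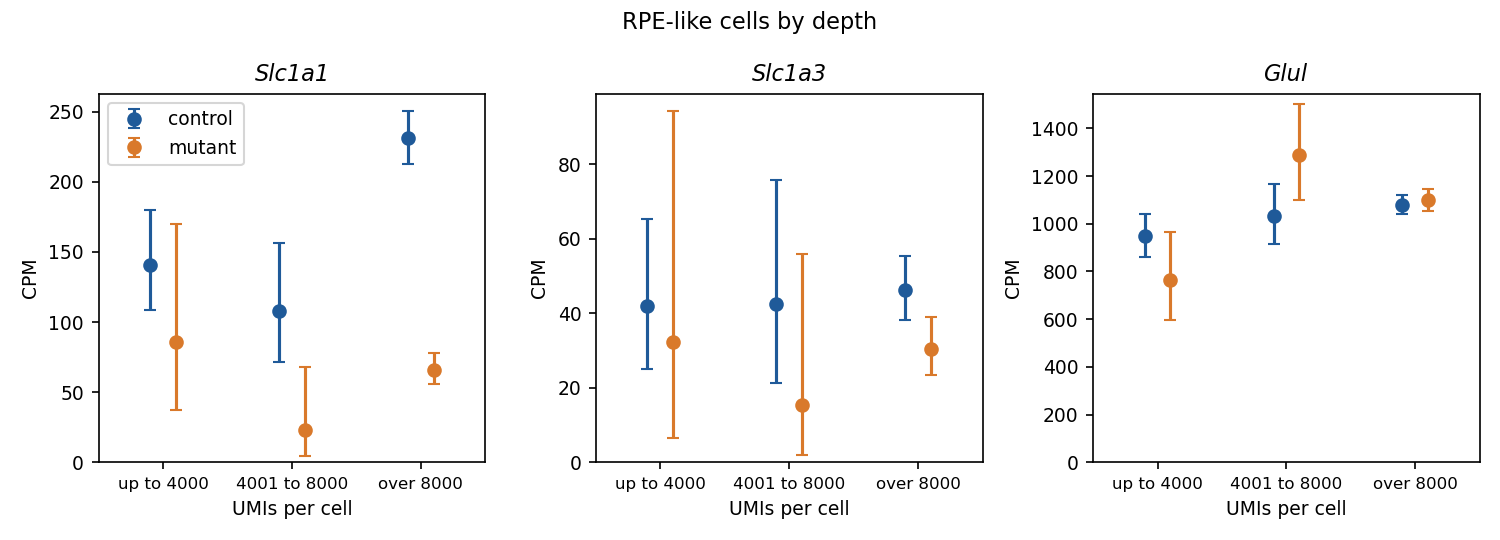
Slc1a1, Slc1a3 and Glul in RPE-like cells (CPM, linear axis from 0) in 3 ranges of UMIs per cell, control in blue and mutant in orange, with 95% Poisson intervals. Slc1a1 lies lower in the mutant in each range, though the intervals overlap in cells of up to 4000 UMIs, and Glul is at 949 and 764 CPM up to 4000 UMIs, at 1033 and 1290 CPM from 4001 to 8000 UMIs and at 1080 and 1099 CPM over 8000 UMIs.

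A finer clustering was named anew and had 488 control RPE-like cells, against 487 in the main one. It placed the RPE-like cells in a group led by Pcp4, Trpm1 and Slc38a8 (358 control and 104 mutant cells) and a group led by Ttr, Slc16a8 and Rgr, of RPE transport and visual cycle genes (130 and 88 cells). Slc1a1 was higher in the second group in both libraries, and lower in the mutant in both groups. It was at 73.0 and 12.6 CPM in the Pcp4-led cells (log2 −2.45, −3.80 to −1.49) and at 282 and 84.5 CPM in the Ttr-led cells (−1.73, −2.02 to −1.47). The Ttr-led cells were also the deep ones, with medians of 16037.5 and 18446 UMIs against 1647.5 and 3122 in the Pcp4-led cells.

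The difference was of like size within each sex-linked class. Among RPE-like cells in which Xist but no Y-linked transcript was found (80 control, 78 mutant) Slc1a1 was at 245 and 66.3 CPM (log2 −1.87, −2.25 to −1.53). Among those with the reverse (128 and 34) it was at 214 and 62.4 CPM (−1.76, −2.38 to −1.22).

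Genes of other tissues moved with genotype in RPE-like cells as well. The summed level of 9 mesenchyme markers was 2437 CPM in control and 343 CPM in mutant cells, that of 7 lens markers 234 and 34.4 CPM, and that of the 12 RPE markers 24452 and 14580 CPM. All 9 mesenchyme markers had UMIs in both libraries, while 3 of the 7 lens markers had any in the mutant. The lens markers were higher in the control in other groups too, at 169 against 0.540 CPM in mesenchyme-like cells and 212 against 0.540 CPM in endothelial-like cells. The part of such transcripts in the differences described for RPE-like cells was not tested. Slc1a1 itself was at 1.19 CPM in control and 1.21 CPM in mutant mesenchyme-like cells.

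Among the named groups outside the RPE, Slc1a1 was highest in 2 neuronal groups, at 16.8 and 18.0 CPM in photoreceptor-like cells and at 14.6 and 15.8 CPM in amacrine-like cells. These neighbours in the order of levels did not differ beyond counting error in either library. Between genotypes the log2 ratio was 0.10 (−0.31 to 0.51) in the first and 0.11 (−0.38 to 0.63) in the second. Within photoreceptor-like cells the transcript was highest in the cluster led by the rod genes Sag, Pdc and Nr2e3 (55.2 and 53.0 CPM), and within amacrine-like cells in the cluster led by AI593442, Crabp1 and Tfap2a (27.9 and 28.7 CPM). Astrocyte-like and peripheral glia-like cells had 0 UMIs in both libraries. This allows up to 7.21 and 5.03 CPM in the astrocyte-like cells, but up to 26.4 and 25.1 CPM in the few peripheral glia-like cells, so that a level like that of the neurons was not excluded there. Endothelial-like cells had 12 and 4 UMIs, and progenitor-like cells 10 and 8.

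Slc1a2 was highest in photoreceptor-like cells at this age, and its level there was much the same in both libraries. Its level was 308 CPM (293 to 323) in the control and 315 CPM (301 to 329) in the mutant, a log2 ratio of 0.03 (−0.06 to 0.13). It was present in all 4 photoreceptor-like clusters, between 274 and 367 CPM in control and between 271 and 360 CPM in mutant cells. Neurogenic-like cells followed at 42.4 and 51.8 CPM (log2 0.28, 0.02 to 0.55) and amacrine-like cells at 42.6 and 41.7 CPM, the latter mostly through the cluster led by Krt73, Ptf1a and Prdm13 (69.9 and 80.9 CPM, log2 0.21, −0.12 to 0.54). In the other amacrine-like cluster it was lower in the mutant, at 16.7 and 8.90 CPM (−0.84, −1.71 to −0.12). The neurogenic difference turned to −0.17 in cells thinned to 1000 UMIs.

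In RPE-like cells Slc1a2 was much scarcer, with 56 control and 21 mutant UMIs (17.4 and 9.15 CPM, log2 −0.86, −1.72 to −0.18). Its thinned share there, 0.775% and 0.595%, overlapped within counting error with that of progenitor-like cells (0.376% and 0.209%), so that expression in RPE-like cells was not distinguished from background at this depth. The photoreceptor markers summed over RPE-like cells were at 793 and 655 CPM, and their part in this difference was not tested. No UMI of Slc1a2 fell in the 31 and 31 astrocyte-like cells, although GLT1 is known as an astrocyte carrier in the adult brain, and the limit is again 7.21 and 5.03 CPM.

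Slc1a3 had its highest levels in astrocyte-like and progenitor-like cells. Astrocyte-like cells held 217 and 332 UMIs, at 521 CPM (454 to 596) and 557 CPM (499 to 620), and progenitor-like cells 6741 and 8610 UMIs, at 406 CPM (396 to 416) and 418 CPM (409 to 427). As whole groups, astrocyte-like cells were above progenitor-like cells beyond counting error in both libraries, but not above every progenitor-like cluster: that led by Ccne2 and Tcf19 was at 472 CPM (434 to 513) and 469 CPM (429 to 511). Between genotypes the log2 ratio was 0.10 (−0.16 to 0.35) in the first group and 0.04 in the second, where the interval reached from just under 0 to 0.09. After thinning, 51.6% of control and 48.4% of mutant astrocyte-like cells and 31.2% and 34.3% of progenitor-like cells held a UMI, and in the mutant these shares overlapped (30.2% to 66.9% against 32.8% to 35.9%). Peripheral glia-like cells, with 0 and 2 UMIs, did not share this pattern.

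Below these came amacrine-like and mesenchyme-like cells in both libraries, and then, in the control, RPE-like cells. Slc1a3 was higher in the mutant in amacrine-like cells (76.4 and 101 CPM, log2 0.40, 0.19 to 0.61) and in mesenchyme-like cells taken as 1 group (58.0 and 78.3 CPM, 0.43, 0.27 to 0.60). The mesenchyme-like clusters did not share 1 direction: the cluster led by Pi16 and Clec3b, with 497 of the 947 control and 226 of the 582 mutant cells, was lower in the mutant (28.6 and 17.9 CPM, −0.65, −1.19 to −0.18), and the clusters led by 1500015O10Rik (55.1 and 70.5 CPM) and by A2m and Kera (139 and 165 CPM) were higher with intervals above 0. The amacrine-like difference lay mainly in the cluster led by AI593442 and Crabp1 (62.8 and 101 CPM), and the cluster led by Krt73 and Ptf1a was at 90.8 and 101 CPM. In RPE-like cells it was lower, at 45.3 and 29.6 CPM (−0.60, −1.05 to −0.19). Red blood-like cells, which should lack the gene, had a thinned share of 5.26% (1.96% to 11.1%) in the control and 3.53% (0.734% to 9.97%) in the mutant, with median depths of 3554.5 and 11077 UMIs. The thinned shares of RPE-like cells, 5.94% (3.80% to 8.78%) and 1.19% (0.144% to 4.23%), overlapped with these, so Slc1a3 in RPE-like cells and its difference there were not distinguished from background. Those of amacrine-like (6.56% and 8.46%) and mesenchyme-like cells (5.06% and 5.90%) overlapped with them too. In the finer clustering the Ttr-led cells were at 38.8 and 18.7 CPM (−1.01, −1.70 to −0.44) and the Pcp4-led cells at 57.2 and 58.1 CPM (0.02, −0.60 to 0.63). The RPE difference turned to 0.29 with a limit of 5% mitochondrial UMIs, which left 269 and 87 cells, and was −0.08 among cells with Xist alone and −1.77 among cells with Y-linked UMIs alone.

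Slc1a4, the exchanger of serine and alanine, was higher in the mutant in the retinal progenitors. There were 199 UMIs in control and 401 in mutant progenitor-like cells, at 12.0 CPM (10.4 to 13.8) and 19.5 CPM (17.6 to 21.5), and the intervals did not overlap. The log2 ratio was 0.66 (0.45 to 0.95), and 1.03% of the 13580 genes tested in these cells had a higher one. The thinned share was 1.25% (40 of 3191 cells, 0.897% to 1.70%) and 2.19% (84 of 3834, 1.75% to 2.71%). Photoreceptor-like cells, where the gene was close to 0 and the median depths were 3311 and 3591 UMIs, gave 0.333% (0.108% to 0.775%) and 0.124% (0.0150% to 0.447%), below the progenitor-like share in both libraries, while the few red blood-like cells (1 of 114 and 0 of 85 with a UMI) set no firm background. The mutant was higher in each of the 4 progenitor-like clusters, by 0.51 to 0.80 on the log2 scale, and the interval was above 0 in 3 of them. Neurogenic-like cells showed the same direction, with 22 and 49 UMIs (4.58 and 8.76 CPM, log2 0.81, 0.18 to 1.73), and amacrine-like cells had 12 and 31 UMIs with an interval that included 0 (0.72, −0.11 to 1.98). The neurogenic ratio was −0.53 among cells with Xist alone, of which the control had 24.

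**Figure D3:**
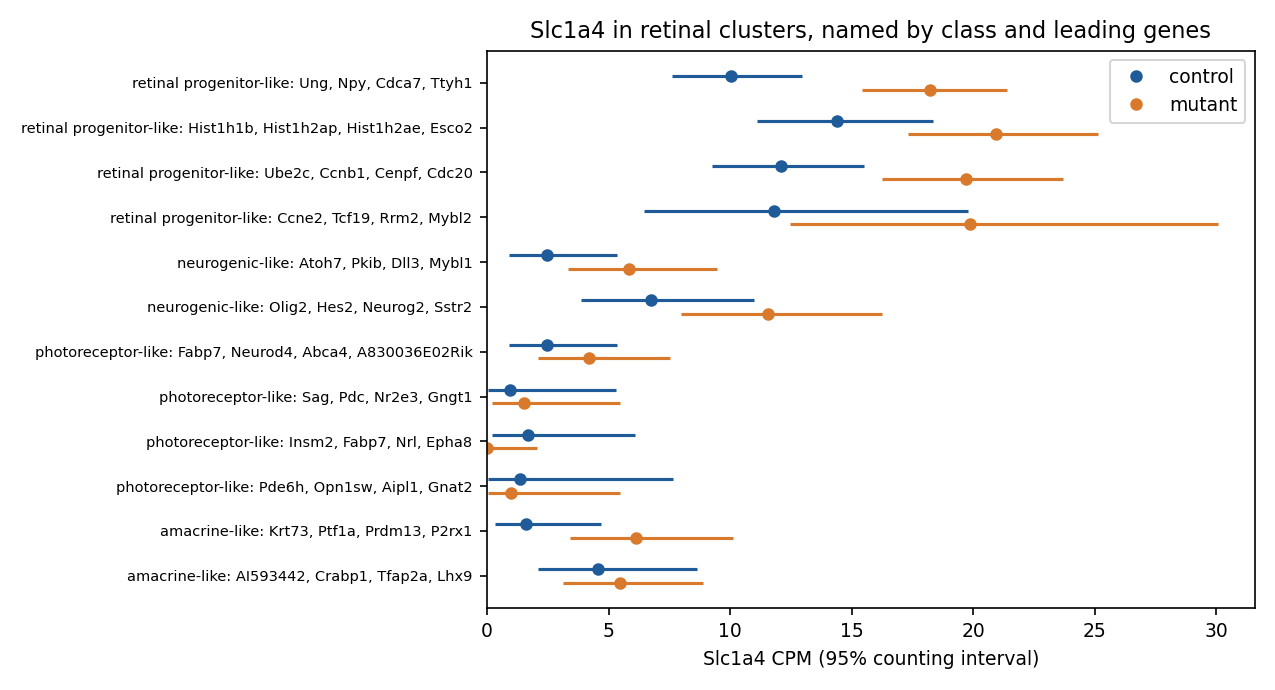
Slc1a4 level (CPM, linear axis from 0) in each retinal cluster, named by its group and leading genes, control in blue and mutant in orange, with 95% Poisson intervals. The mutant lies to the right of the control in all 4 progenitor-like clusters, and the photoreceptor-like clusters at the lower end are close to 0 in both libraries.

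The sex-linked classes bear on this comparison, because the retina of the control was mostly of cells with Y-linked UMIs and that of the mutant mostly of cells with Xist. Among progenitor-like cells with Y-linked UMIs alone (1864 control, 535 mutant), Slc1a4 was at 10.7 and 23.8 CPM (log2 1.08, 0.70 to 1.59). Among those with Xist alone it was at 11.9 and 17.9 CPM (0.56, −0.78 to 2.48), where the control had only 67 cells and 4 UMIs. Within the mutant library the 2 classes thus stood at 23.8 and 17.9 CPM. Pups of one library were not told apart, and the spread between pups of a genotype cannot be told apart from the difference between genotypes.

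In mesenchyme-like cells, where Slc1a4 was highest in the control, the direction was the opposite: 299 and 158 UMIs gave 27.5 and 21.3 CPM (log2 −0.35, −0.65 to −0.08), lower in 4 of 4 clusters, though with an interval apart from 0 in 0 of them. RPE-like cells hardly held the transcript, with 6 and 9 UMIs (1.86 and 3.92 CPM), and mural-like and surface epithelium-like cells were at 14.0 and 14.3 CPM and at 14.1 and 11.4 CPM. In the control order from mesenchyme-like through astrocyte-like, surface epithelium-like and mural-like to progenitor-like cells, no neighbours differed beyond counting error.

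Slc1a5 had UMIs in every named group of both libraries, and its interval included 0 in each of the retinal groups. Mesenchyme-like cells were at 42.1 and 37.9 CPM, RPE-like cells at 31.0 CPM (25.2 to 37.7) and 30.1 CPM (23.4 to 38.1), and progenitor-like cells at 15.7 and 18.1 CPM. The log2 ratio in RPE-like cells was −0.04 (−0.51 to 0.41), but it was −1.06 after thinning, on 10 and 2 UMIs, and 0.46 in cells of at most 2000 UMIs, on 4 and 1 UMIs. In progenitor-like cells it was 0.20 (−0.02 to 0.45), with 0.53 (0.13 to 0.97) among cells with Y-linked UMIs alone. In endothelial-like cells 72 control and 23 mutant UMIs gave 21.3 and 12.4 CPM (−0.73, −1.52 to −0.08). The mutant cells there were deeper (medians of 4411 and 8921 UMIs) and their summed mesenchyme markers lower (1373 and 180 CPM), and the part of these in the difference was not tested. Thinned, the difference rested on 7 and 1 UMIs, and as a mean over cells the ratio was −0.039. Endothelial-like cells were the only group in which the Slc1a5 interval lay apart from 0.

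Glul was highest in the RPE-like cells, and its level over all of them differed between genotypes by less than the counting error. With 3410 and 2514 UMIs it was at 1058 CPM (1023 to 1094) in the control and at 1096 CPM (1054 to 1140) in the mutant, a log2 ratio of 0.05 (−0.02 to 0.13). The thinned share was 61.2% and 59.5% of cells. In the finer clustering it was lower in the mutant in the Pcp4-led cells (828 and 726 CPM, −0.19, −0.35 to −0.03) and at 1183 and 1238 CPM in the Ttr-led cells (0.07, −0.02 to 0.15). Surface epithelium-like cells came next at 620 and 555 CPM, and progenitor-like cells followed at 305 and 336 CPM, and each step down to the progenitors exceeded counting error in both libraries. In progenitor-like cells the mutant was slightly higher (log2 0.14, 0.09 to 0.19), a ratio above that of 68.5% of the genes tested there. In cells of at most 2000 UMIs the ratio turned to −0.38, on 34 and 36 UMIs.

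In the small glial and vascular groups, the Glul interval was above 0 in astrocyte-like cells and below 0 in endothelial-like cells. Astrocyte-like cells held 52 and 122 UMIs, at 125 CPM (93.3 to 164) and 205 CPM (170 to 244), a log2 ratio of 0.71 (0.23 to 1.21) that rests on 31 cells in each library. Their thinned shares overlapped, with 5 and 7 cells holding a UMI (16.1% and 22.6%), and 25 of the control cells had Y-linked UMIs alone and 1 Xist alone, against 3 and 25 of the mutant cells. Peripheral glia-like cells had 11 and 17 UMIs (0.55, −0.62 to 1.79). Endothelial-like cells held 417 and 155 UMIs, at 123 CPM (112 to 136) and 83.7 CPM (71.0 to 97.9), a ratio of −0.55 (−0.83 to −0.29). Their thinned shares overlapped, at 13.6% (10.3% to 17.4%) and 10.8% (6.39% to 16.7%). Red blood-like cells, used above for Slc1a3, gave 13.2% (7.56% to 20.8%) and 2.35% (0.286% to 8.24%), and 69.4 and 57.0 CPM unthinned. At the thinned depth the endothelial-like share was not distinguished from this background in either library. The astrocyte-like share was not in the control (5.45% to 33.7%), but it was in the mutant (9.59% to 41.1%). Mural-like cells were at 62.9 and 42.9 CPM (−0.54, −1.28 to 0.14). Endothelial-like cells were deeper in the mutant and lower in mesenchyme markers, as given above, and their red blood markers were at 3889 and 927 CPM; the part of these in the Glul difference was likewise not tested. Among endothelial-like cells with Xist alone (63 and 91) the ratio was 0.09, and among those of at most 2000 UMIs it was 0.47 on 36 and 7 UMIs.

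Read as a set, the 6 genes divided by group. In RPE-like cells, where Slc1a4 fell short of 20 UMIs, 3 members had an interval below 0 (Slc1a1, Slc1a2 and Slc1a3), 0 above and 3 included 0; over all genes tested there, 13.8% had an interval below 0 and 12.8% above. Only Slc1a1 among the 6 passed 2-fold in RPE-like cells, where 4.88% of genes tested were at least 2-fold lower and 2.55% at least 2-fold higher. In progenitor-like cells, where Slc1a1 fell short of 20 UMIs, 0 members were below, 2 above (Slc1a4 and Glul) and 4 included 0, against 10.7% and 19.4% of all genes tested. In endothelial-like cells, where Slc1a1 again fell short, 2 were below (Slc1a5 and Glul) and 0 above, against 7.12% and 6.43%. In photoreceptor-like cells all 6 intervals included 0, against 6.32% of all genes below and 9.77% above. The same held in mural-like cells, against 4.31% and 4.55%, but there Slc1a1 and Slc1a2 fell short of 20 UMIs. With 6 members, such counts are a description.

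**Figure D4:**
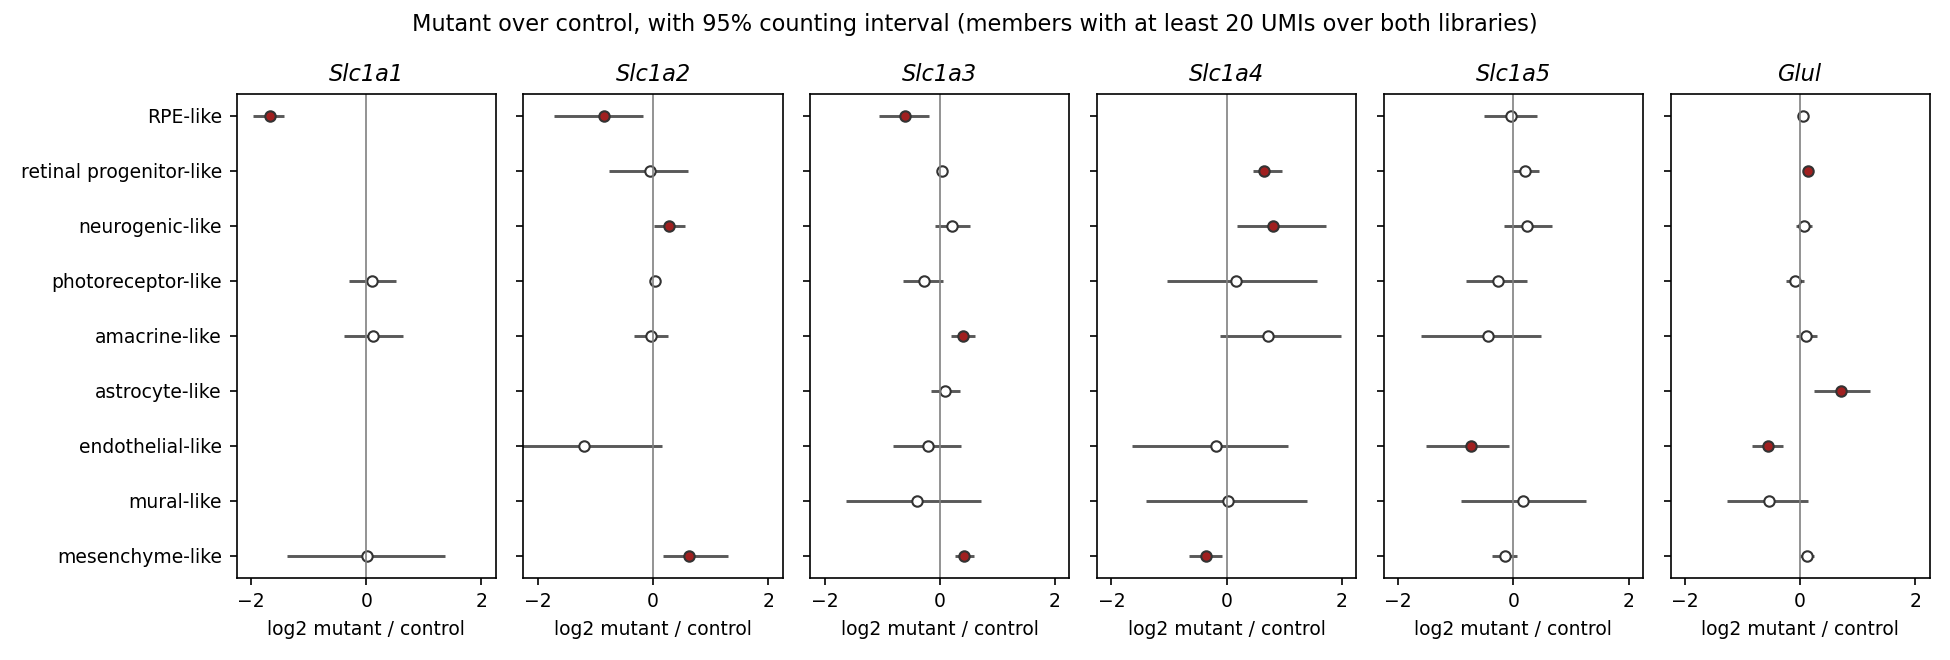
Log2 ratio of mutant over control for each gene in 9 groups of cells, with 95% counting intervals; only pairs with at least 20 UMIs over both libraries are drawn, filled circles have an interval apart from 0, and open circles include 0. Slc1a1 in RPE-like cells is the point farthest below 0 (−1.68), and Slc1a4 lies above 0 in progenitor-like (0.66) and neurogenic-like cells (0.81).

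The contrast between RPE-like and progenitor-like cells was also taken within the control. On the log2 scale, with 1 CPM added, Slc1a1 was higher in the RPE-like cells by 7.03, Slc1a2 by 2.56, Glul by 1.79 and Slc1a5 by 0.94. Slc1a3 and Slc1a4 were lower there, with ratios of −3.14 and −2.18. For Slc1a2 this sets 17.4 CPM against a low progenitor level, and its level in photoreceptor-like cells of the neural retina was 308 CPM.

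The other amino acid genes give the setting of these differences. In RPE-like cells, 33 of 51 listed transporters, enzymes and regulators had enough UMIs, and 4 were at least 2-fold lower and 2 at least 2-fold higher in the mutant (4.88% and 2.55% of all genes), with a median log2 ratio of −0.29 (over all genes tested −0.01). Of the 33, 13 had an interval below 0 and 4 above, against 13.8% and 12.8% of all genes tested, so the share above was near that of all genes. The lowest were Slc7a10, an exchanger of serine, alanine and glycine (441 and 40 UMIs, 137 and 17.4 CPM, log2 −2.90, −3.48 to −2.50), Slc7a5, the large neutral carrier LAT1 (−1.61), Slc6a9, the glycine carrier GLYT1 (−1.57), Slc6a13, a carrier of GABA and taurine (−1.29), and Slc16a10, a carrier of aromatic amino acids (−0.99). The highest were Slc6a15, a neutral amino acid carrier (93.4 and 267 CPM, 1.50, 1.31 to 1.72), Shmt2 (1.13) and Shmt1 (0.77), which convert serine to glycine, Slc7a11, the cystine and glutamate exchanger (0.85), and Glud1, glutamate dehydrogenase (0.33). All 13 with an interval below 0 were also lower among cells with Xist alone and among cells with Y-linked UMIs alone. These cells are part of those by which the 13 were picked, so the agreement is no separate test. By list, 2 of 4 tested carriers of GABA, glycine and taurine and 2 of 8 large neutral, cystine and basic carriers were at least 2-fold lower and 0 higher, with medians of −1.07 and −0.58, against 4.88% of all genes lower. Of the 5 tested glutamine and small neutral carriers 0 were lower and 1 higher (median −0.07), and of the 5 tested enzymes of serine, glycine, proline and asparagine 0 were lower and 1 higher (median 0.15). The 7 tested enzymes of glutamate and glutamine (median −0.29), the 3 response regulators (−0.01) and the 1 other Slc1 gene (−0.31) had 0 past 2-fold either way.

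In progenitor-like cells none of 40 tested genes of the same lists passed 2-fold (0.758% of all genes were at least 2-fold lower and 0.133% higher), but 18 had an interval above 0 and 2 below (19.4% and 10.7% of all genes), with a median log2 ratio of 0.14 against 0.05 over all genes. The list of large neutral, cystine and basic carriers had 6 of 9 above 0 and a median of 0.55, and that of serine, glycine, proline and asparagine enzymes 5 of 7 above 0 and a median of 0.26. The other lists had smaller shares above 0, with 2 of 5 glutamine and small neutral carriers (median 0.07), 2 of 5 response regulators (0.17), 2 of 8 enzymes of glutamate and glutamine (0.11), 1 of 5 carriers of GABA, glycine and taurine (−0.01) and 0 of 1 other Slc1 gene (0.14). Named after their values were seen, the highest were Pycr1, of proline synthesis (9.93 and 20.5 CPM, 0.98, 0.79 to 1.32), Slc7a3 (0.95), Slc7a5 (21.9 and 42.8 CPM, 0.94, 0.79 to 1.15) and Asns, asparagine synthetase (17.1 and 31.3 CPM, 0.84, 0.67 to 1.08). Slc7a5 was thus lower in mutant RPE-like cells and higher in mutant progenitor-like cells, while Atf4 itself was at 111 and 115 CPM in progenitor-like cells (0.05, −0.03 to 0.14). Among progenitor-like cells with Y-linked UMIs alone, 18 of the 18 genes were higher in the mutant, and among those with Xist alone 13 of 18. These cells too are part of those by which the genes were picked, and the control had only 67 with Xist alone. Slc7a5, Asns and Pycr1, like Slc1a4, were higher in the Y-linked than in the Xist cells of the mutant library (61.8 and 36.5, 41.7 and 27.0, and 27.1 and 17.7 CPM). Of the 41 other listed genes with a RefSeq promoter, 4 held TGATGCAA (Chac1, Got1, Pycr1 and Slc7a11), against 0.895% of all promoters. Here and for the motifs below, a gene counted where any of its promoters matched, while the share of all is per promoter. The measures are thus unlike, and Chac1 was listed as a regulator of the amino acid response. The MYRF form CTGGCAC was in 3 (Slc7a10, Ddit3 and Got2), against 5.01%, and CTGGTAC in 1 (Chac1), against 2.24%. The E-box CACGTG was in 5, against 7.15%, the E-box CATGTG also in 5, against 14.2%, and the OTX2 letters GGATTA likewise in 5, against 7.06%.

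**Figure D5:**
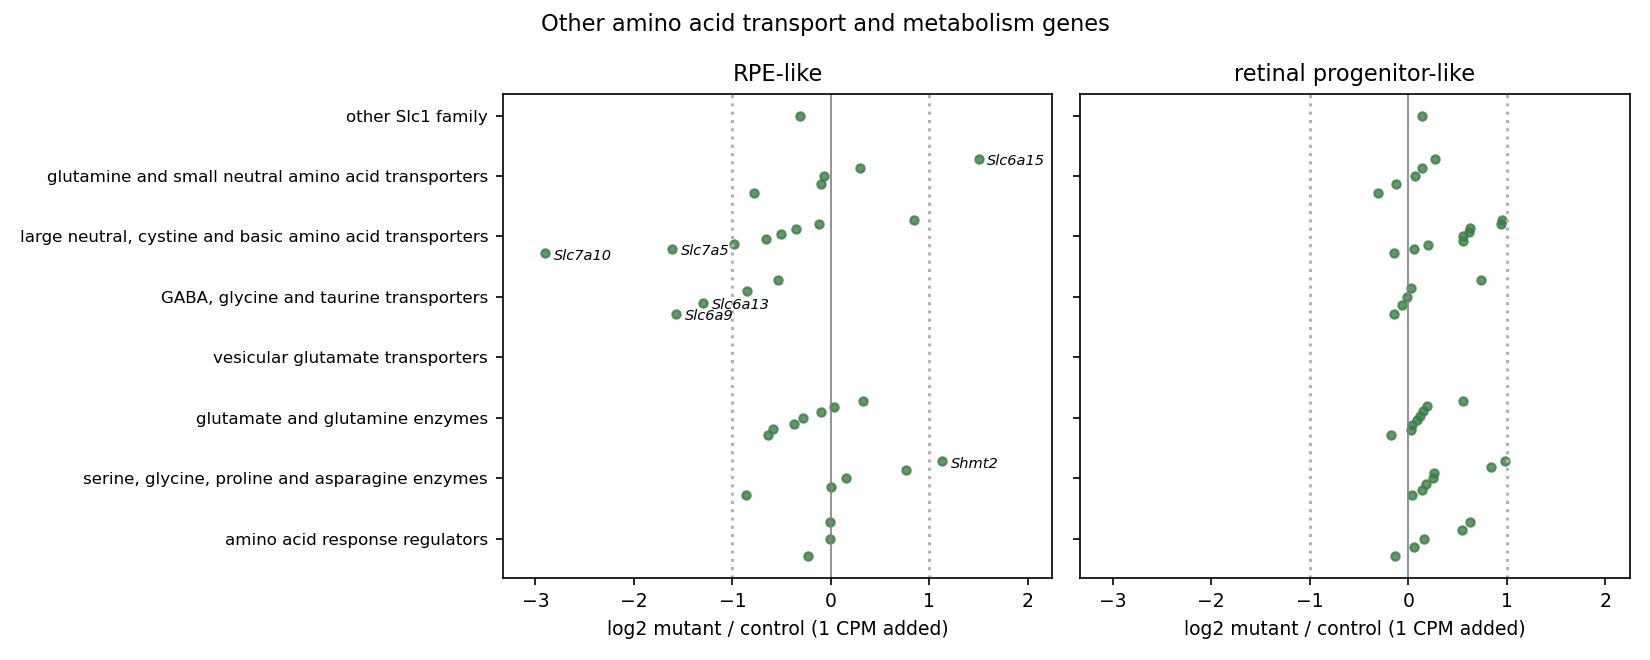
Log2 ratio of mutant over control (1 CPM added) for the other amino acid transport and metabolism genes with at least 20 UMIs, each point 1 gene, by list, in RPE-like cells on the left and progenitor-like cells on the right; dotted lines mark 2-fold, and names are given past it. Slc7a10 (−2.90), Slc7a5, Slc6a9 and Slc6a13 lie past 2-fold to the left in RPE-like cells, and no gene passes 2-fold in progenitor-like cells.

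Genes with a distribution like that of each member were ranked by Pearson correlation of log2(CPM + 1) over 24 points, 12 groups of at least 50 cells in 2 libraries, among 11537 genes; the points share libraries and sequencing depth, and the correlations are descriptive. Slc1a1 was most like Usp32 (0.89), 4430402I18Rik (0.87) and Lmo1 (0.87). Slc1a2 was most like Cplx2 (0.94), Neurod4 (0.93) and Neurod1 (0.92), the latter both transcription factors of photoreceptor and amacrine precursors. Slc1a3 followed Pmepa1 (0.88), Lrrtm1 (0.85) and Dkk3 (0.83). Slc1a4 was most like Arpin, Sema5a and Prkg1 (0.82 to 0.80), Slc1a5 like Rhoq, Trp53i13 and Calu (0.92 to 0.87) and Glul like Ezr, Stxbp2 and Sgk3 (0.88 to 0.87). Among the members themselves the highest correlation was that of Slc1a1 with Slc1a2 (0.50).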

How the data were processed

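The authors counted UMIs per gene and barcode by Cell Ranger in 3′ libraries of the 10x Genomics system, using the mouse genome mm10 (GRCm38) as reference, and the deposited values are raw counts without normalization. The submitters' processing notes name Cell Ranger 7.1.0 and Seurat 4.1.1; the gene annotation is not given in the sources used here. Gene positions came from GENCODE mouse release 21.

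Barcodes with at least 200 genes and at most 15% mitochondrial UMIs were kept, 14131 control and 12027 mutant. Doublets were ranked by Scrublet (scanpy 1.11.5), whose own threshold marked 0% and 5.48%; the expected rate of 0.8% per 1000 cells was therefore used in both libraries, removing 1682 and 1230. The 2000-UMI limit in the study's methods was used only as an alternative, since 80.2% and 92.1% of barcodes lie above it.

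Libraries were integrated by anchors and clustered in Seurat 5.3.0 (2000 variable genes, 30 components, resolution 1) without the 6 members, the listed amino acid genes, the RPE and melanocyte markers, Myrf and sex-linked genes. Markers were scored as present where 10% or more of a cluster had a UMI at 2 times the level of the rest. A name needed 3 or more present markers and no more absent than present. Shallow clusters and those led by another class stayed unnamed. So did clusters with 6 or more present markers of another class, unless their own markers led it by 2 or more among the 10 leading genes. The naming limits were adjusted after the clusters had been seen, so names are rebuilt ones.

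UMIs were summed per library and group. Ratios are log2 with 1 CPM added, with an exact conditional Poisson interval of the plain ratio; CPM has Poisson and shares exact Clopper-Pearson 95% intervals, and a count of 0 is taken to allow 3. A gene was tested with at least 20 UMIs over both libraries, and called past 2-fold. The interval covers counting only, not the spread between pups. The calculation was tested on simulated counts. All 6 members were measured in every group. Of the other lists, the 5 lowest and 5 highest genes in RPE-like cells were named. Members and lists were chosen with earlier results of these data known. Alternatives were other limits on UMIs and mitochondrial share, no doublet removal, other clusterings, thinning, means over cells, sex-linked classes and added CPM.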

Additional observations from a re-analysis of the deposited data

How the results depend on the processing

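No paired analysis was possible because each genotype has 1 library, and no replicate could be left out for the same reason. Of 208 alternative values for the main results, 145 were counted as unmoved. Ratios were judged by the counting interval, and counts of genes by a change of less than 1.5 times. The interval uses no added CPM while the ratios use 1, so 145 does not measure how many shifts were small. In the control Slc1a1 contrast of RPE-like over progenitor-like cells, 7.02 (resolution 0.5) was counted as moved from 7.03. The value of 8.21 (0.1 CPM added) was not.

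Values for RPE-like cells moved as follows, as log2 ratios of mutant over control. With at most 2000 UMIs per cell (209 and 41 cells) Slc1a1 was at −0.32, Slc1a5 at 0.46 and Glul at −0.36, and Slc1a2 (−4.78), Slc1a3 (−4.22) and Slc1a4 (−3.29) had 0 mutant UMIs, so these values depend on the added 1 CPM. With 5% mitochondrial UMIs Slc1a1 was at −1.99 and Slc1a3 turned to 0.29. Thinning gave −2.20 for Slc1a1, −1.28 for Slc1a3, −1.06 for Slc1a5 and −0.11 for Glul, and means over cells −1.22 for Slc1a1 and −0.60 for Slc1a4. Slc1a3 was at −1.16 without doublet removal and −1.26 without integration. Cells with Xist alone gave −0.084 for Slc1a3 and −0.10 for Glul, and cells with Y-linked UMIs alone −1.77 for Slc1a3, 0.41 for Slc1a5 and 0.19 for Glul.

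The control contrast of RPE-like over progenitor-like cells kept its sign throughout. Slc1a1 was at 6.86 (no doublet removal), 7.02 and 6.98 (resolutions 0.5 and 2), 7.01 (thinned), 6.72 (means), 5.95 (Xist), 4.36 (10 CPM added) and 8.21 (0.1 CPM added). Slc1a2 was at 1.09 (2000 UMIs), 2.11 (5% mitochondrial), 2.35 (resolution 0.5), 0.88 (thinned), 4.73 (Xist), 1.54 (Y-linked) and 1.18 (10 CPM). Slc1a3 was at −4.05 (2000 UMIs), −2.75 (no doublet removal), −2.75 (thinned), −3.49 (means), −2.72 (Y-linked) and −2.91 (10 CPM). Slc1a4 was at −0.39 (2000 UMIs), −1.16 (means) and −0.89 (10 CPM), Slc1a5 at 4.22 (2000 UMIs), 0.28 (5% mitochondrial), 0.51 (thinned), 0.48 (means) and 1.97 (Xist), and Glul at 1.23 (2000 UMIs), 1.69 (means) and 2.00 (Xist).

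Genes at least 2-fold lower in RPE-like cells numbered 1105 with means over cells, 219 with 10 CPM, 907 from 1 UMI and 244 from 100 UMIs, against 540; those higher numbered 130 (2000 UMIs), 147 (thinned), 610 (means), 505 (Xist), 83 (10 CPM), 591 (1 UMI) and 98 (100 UMIs), against 282.

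Over all groups and alternatives the sign of 103 of 846 log2 ratios turned, 91 of them for ratios whose own interval included 0. The other 12 include the Slc1a3 value of 0.29 above, and in other groups than RPE-like cells the sign turned with at most 2000 UMIs for Glul in progenitor-like (−0.38) and endothelial-like cells (0.47), Slc1a2 (−5.13) and Slc1a4 (−3.63) in neurogenic-like cells, and Slc1a2 (−3.38) and Slc1a3 (−5.28) in mesenchyme-like cells, the last 4 with 0 mutant UMIs. It turned with thinning for Slc1a2 in neurogenic-like (−0.17) and mesenchyme-like cells (−0.74), and among cells with Xist alone for Slc1a2 (−1.05) and Slc1a4 (−0.53) in neurogenic-like and Glul in endothelial-like cells (0.086). Unless a count of 0 is given, the cause was not tested. The 2000-UMI and 5% limits kept the groups of the main clustering. Leaving out the shared barcodes, an alternative chosen after seeing the data, turned the sign of 1 ratio, that of Slc1a1 in mesenchyme-like cells, from 0.013 to −0.074, and it moved no value beyond counting error. The depth limits Slc1a4 in RPE-like cells, glia with 31 or fewer cells, and the vessels.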

Other observations

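The members were also measured in groups outside the retina, RPE, glia and vessels. White blood-like cells (264 control and 70 mutant), the group of macrophages and microglia, held Glul at 273 CPM (249 to 298) and 334 CPM (291 to 380), a log2 ratio of 0.29 (0.05 to 0.52), and Slc1a2 at 25 and 2 UMIs, a log2 ratio of −1.92 (−5.36 to −0.24). After thinning, Slc1a2 was in 3 of 233 control and 0 of 66 mutant cells of this group. In red blood-like cells it was in 3 of 114 and 0 of 85, so the Slc1a2 share was not distinguished from background. Control white blood-like cells had a median of 2971.5 UMIs and mutant ones one of 8548, and the part of depth in these differences was not tested. Melanocyte-like cells, neural crest cells that make pigment as the RPE does, had 0 Slc1a1 UMIs in 30 and 18 cells, which allows up to 5.33 and 9.09 CPM, while their Glul was at 277 and 282 CPM (0.02, −0.36 to 0.40). Muscle-like cells (120 and 72) had 1 and 8 UMIs of Slc1a4 and 72 and 35 UMIs of Glul, the latter at 86.2 and 54.7 CPM (−0.65, −1.28 to −0.05).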
